A study of Mus musculus with 6 samples.

Results

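The genes described here encode the machinery that copies DNA in S phase and the enzymes that supply it with deoxynucleotides. They are 47 named genes among the 29370 gene identifiers of the expression matrix, and all 47 were measured well enough to be tested. The set was picked by symbol, with earlier results of these data known. RNA was sequenced from CD8+ T cells, the cytotoxic lymphocytes, of WT mice, obtained from lymph nodes, spleen and pancreas and held in complete T cell medium. The palmitate group (3 libraries) was given 100 µM palmitate, a saturated fatty acid, and the control group (3 libraries) was not, and both were harvested after 48 h; the question was what palmitate does to the function of these cells. The protocol text shared by every sample names the palmitate supplement, so the groups follow the treatment field, and the sources used here do not say what vehicle control cultures received, how old the mice were, or whether animals were pooled.

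Replication starts at origins, where the origin recognition complex, Cdc6 and Cdt1 load the Mcm2 to Mcm7 helicase ring in G1, a step called licensing that geminin blocks later in the cycle. At S phase entry Mcm10, Cdc45 and the GINS complex turn the ring into a working helicase, primase and DNA polymerases copy the strands, the ring-shaped clamp PCNA and its loader RFC keep the polymerases attached, and histone chaperones rebuild chromatin behind the fork. Thymidylate synthase, thymidine kinase, ribonucleotide reductase and dUTPase keep deoxynucleotides available and uracil out of DNA, and activated CD8+ T cells, which divide rapidly, are known for high expression of all these genes.

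Many S phase genes are read by E2F transcription factors, so the promoters of these genes were searched for 8-letter E2F-type words. The words were TTTCCCGC, TTTCGCGC, TTTGCCGC and TTTGGCGC on either strand, in RefSeq windows of build GRCm38.p6 that run from 250 bases before to 50 bases after a start site. A window was found for 39 of the 47 genes; Gins1, Gins2, Gins4, Gmnn, Mcm4, Pole, Prim2 and Rfc2 had none in the table. Of the 39, 15 held at least 1 word (38.5%), against 442 of 9207 tested genes with a window (4.80%) and 744 of all 32851 windows (2.26%). The 6 stretches printed here run from 175 to 11 bases before the RefSeq start on the gene's own strand, with E2F-type words in capitals. Mcm5, Mcm6 and Pola1 are shown because their promoters hold words although their RNA did not pass the test described further on. Pola1 did fall in another way of counting given below, although the level of its coding transcript overlapped between the groups. The counts tested for Mcm5 held 29.6% of its transcript reads. Rfc4, Rrm1 and Tyms are shown because their RNA fell although no word is in their windows.
Mcm5, chr8:75109334-75109498, plus strand: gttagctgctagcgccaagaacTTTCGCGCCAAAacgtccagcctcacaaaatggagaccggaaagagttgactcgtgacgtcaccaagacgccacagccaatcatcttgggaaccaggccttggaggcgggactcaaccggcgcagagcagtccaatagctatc
Mcm6, chr1:128359716-128359880, minus strand: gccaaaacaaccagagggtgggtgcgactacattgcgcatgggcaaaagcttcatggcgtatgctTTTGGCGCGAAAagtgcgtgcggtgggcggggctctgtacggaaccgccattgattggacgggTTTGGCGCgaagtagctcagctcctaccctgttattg
Pola1, chrX:93632166-93632330, minus strand: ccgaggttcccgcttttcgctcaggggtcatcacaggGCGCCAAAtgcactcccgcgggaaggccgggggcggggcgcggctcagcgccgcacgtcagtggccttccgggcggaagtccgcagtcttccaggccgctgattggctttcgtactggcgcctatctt
Rfc4, chr16:23127741-23127905, minus strand: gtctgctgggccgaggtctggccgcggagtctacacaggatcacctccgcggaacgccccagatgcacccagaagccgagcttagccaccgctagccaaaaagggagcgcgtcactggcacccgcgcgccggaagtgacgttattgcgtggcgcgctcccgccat
Rrm1, chr7:102441520-102441684, plus strand: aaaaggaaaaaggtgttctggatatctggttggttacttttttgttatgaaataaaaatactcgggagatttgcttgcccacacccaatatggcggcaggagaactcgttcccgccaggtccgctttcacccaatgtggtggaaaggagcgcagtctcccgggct
Tyms, chr5:30073636-30073800, minus strand: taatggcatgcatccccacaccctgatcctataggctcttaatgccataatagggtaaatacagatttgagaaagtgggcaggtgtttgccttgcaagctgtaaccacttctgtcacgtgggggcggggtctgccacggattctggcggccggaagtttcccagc
In Mcm5 the words TTTCGCGC and GCGCCAAA overlap, their first letters lying 153 and 149 bases before the start. In Mcm6 TTTGGCGC and GCGCGAAA overlap in the same way 110 and 106 bases before the start, and another TTTGGCGC lies 47 bases before it. In Pola1 the word GCGCCAAA begins 138 bases before the start. Words that share letters are not independent matches. A match describes letters in a window and is not evidence of binding, and a window without a match may still lie beside a site outside it. Only exact words were counted. The Rrm1 stretch holds gttcccgc, which differs from TTTCCCGC in 1 letter, so a window without a word may still hold a similar one.

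The gene counts summed to between 16724588 and 24777611 in the palmitate libraries and between 26042768 and 29362276 in the control libraries. Mitochondrial genes took 0.958% to 1.14% of the counts in palmitate libraries and 0.899% to 1.07% in control libraries. Each of the 47 genes had at least 4680 counts over the 6 libraries. The labels do not state whether each library is a separate animal or culture; the p-values therefore reflect variation among these libraries, and that variation may be technical. The CD8 T cell list (Cd8a, Cd8b1, Cd3e, Cd3d, Cd3g and Cd2) was plainly expressed. It summed to 1637, 1486 and 1579 CPM (counts scaled to a common library total) in palmitate libraries 1 to 3. In control libraries 1 to 3 it summed to 1240, 1021 and 1202 CPM. In the test described below 5 of its 6 genes rose, where 11.1% of all tested genes rose, and Cd2 did not pass. All 5 calls were lost without control 3. Only the call of Cd3d was kept without each other library, and that of Cd8b1 was kept only without control 1.

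Palmitate-treated cells held less RNA of many genes of this set. Among them were Pcna, Rfc3 and Rfc4 of the clamp and its loader and both ribonucleotide reductase subunits, Rrm1 and Rrm2. The dUTPase gene Dut, the geminin gene Gmnn and the nuclease gene Fen1 were others. No subunit of the helicase ring passed the test. Of the 47 genes, 24 fell and 0 rose in edgeR's quasi-likelihood test (Benjamini-Hochberg adjusted p under 0.05 over all 12068 tested genes), in which 11.7% of tested genes fell and 11.1% rose. At an unadjusted p under 0.05 the set counted 28 lower and 0 higher, where 19.1% of tested genes were lower and 18.6% higher. DESeq2 counted 26 lower and 0 higher, where 14.9% of genes fell and 11.3% rose, and limma-voom 23 lower and 0 higher, where 11.1% fell and 10.9% rose. The falls were small. Those that passed ran from −0.23 (Gins4) to −0.87 (Rfc1) on the log2 scale with a median of −0.36, and the median over all 47 genes was −0.23, against 0.02 over all tested genes. In 34 of the 47 genes every palmitate library lay below every control library, which was so for 21.2% of tested genes, and in 0 genes did every palmitate library lie above, which was so for 21.6%. Taking libraries of the same replicate number as pairs, palmitate was the lower of the pair in all 3 pairs for 40 genes, against 30.1% of tested genes; these are the 34 and Cdt1, Mcm2, Mcm6, Rpa1, Rpa2 and Tk1. The log2 fold change was above 0 for 5 genes, Mcm5, Pold1, Pold2, Pole and Uhrf1, none of which passed; Uhrf1 had the opposite sign (−0.02) in transcript sums with length offsets.

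The summed level of the 47 genes was 8918, 8467 and 8892 CPM in palmitate libraries 1 to 3, against 10457, 10159 and 10385 CPM in control libraries 1 to 3. These ranges did not overlap. In a bulk sample, fewer cells in S phase and less of these RNAs per cell cannot be told apart. Of 7 tested B and plasma cell genes, Cd79a and Jchain rose (Cd79a not without palmitate 2, palmitate 3 or control 3), while Sdc1 of plasma cells was lower in every palmitate library and did not pass (−0.43, adjusted p = 0.172); the list summed to 21.9, 34.3 and 36.2 CPM in palmitate libraries, against 16.4, 17.7 and 20.9 CPM in control libraries. Hbb-bs (erythroid), Zbtb7b (CD4 T cell) and Pecam1 (endothelium, also present on T cells) were the called genes of their lists and rose; Hbb-bs kept its call without each library, Zbtb7b only without palmitate 1 and Pecam1 only without palmitate 2 or control 1. Of the pancreas list, Pnlip, Ctrb1, Ins1 and Ins2 were at 0 in all 6 libraries, while Amy2a5 had 0.202, 0.314 and 0.239 CPM in palmitate and 0.206, 0.281 and 0.176 CPM in control libraries, and Cela2a and Cpa1 had a few reads. Of the neutrophil list, S100a8 and S100a9 were at 0 throughout, Ly6g had 1 read in each palmitate library and none in control libraries, and Mpo had 0.726, 0.197 and 0.418 CPM in palmitate and 0.619, 0.12028 and 0.423 CPM in control libraries, overlapping. The part of these cells in the falls was not tested.

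The count of falls was lower whenever 1 library was left out. It was 14 without palmitate 1, 13 without palmitate 2, 10 without palmitate 3, 22 without control 1, 17 without control 2 and 5 without control 3, where 6.26%, 7.38%, 5.18%, 14.8%, 5.7% and 2.8% of all tested genes fell. With all libraries 11.7% of tested genes fell. The median log2 fold change of the set ran from −0.21 without control 1 to −0.27 without control 2, against −0.23 with all libraries. Fits without a library have fewer samples, and a lost call there is no sign of a smaller change. The 5 genes that fell in every one of these 6 fits were Gmnn, Rfc3, Rfc4, Fen1 and Dut. With upper-quartile scaling 17 of the 24 falls remained, and the split over all tested genes became 1052 lower (8.72%) and 1651 higher (13.7%), against 1416 lower and 1343 higher with TMM scaling. The falls not kept under that scaling were those of Cdc6, Cdc45, Gins4, Prim1, Chaf1a, Chaf1b and Tyms.

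**Figure D1:**
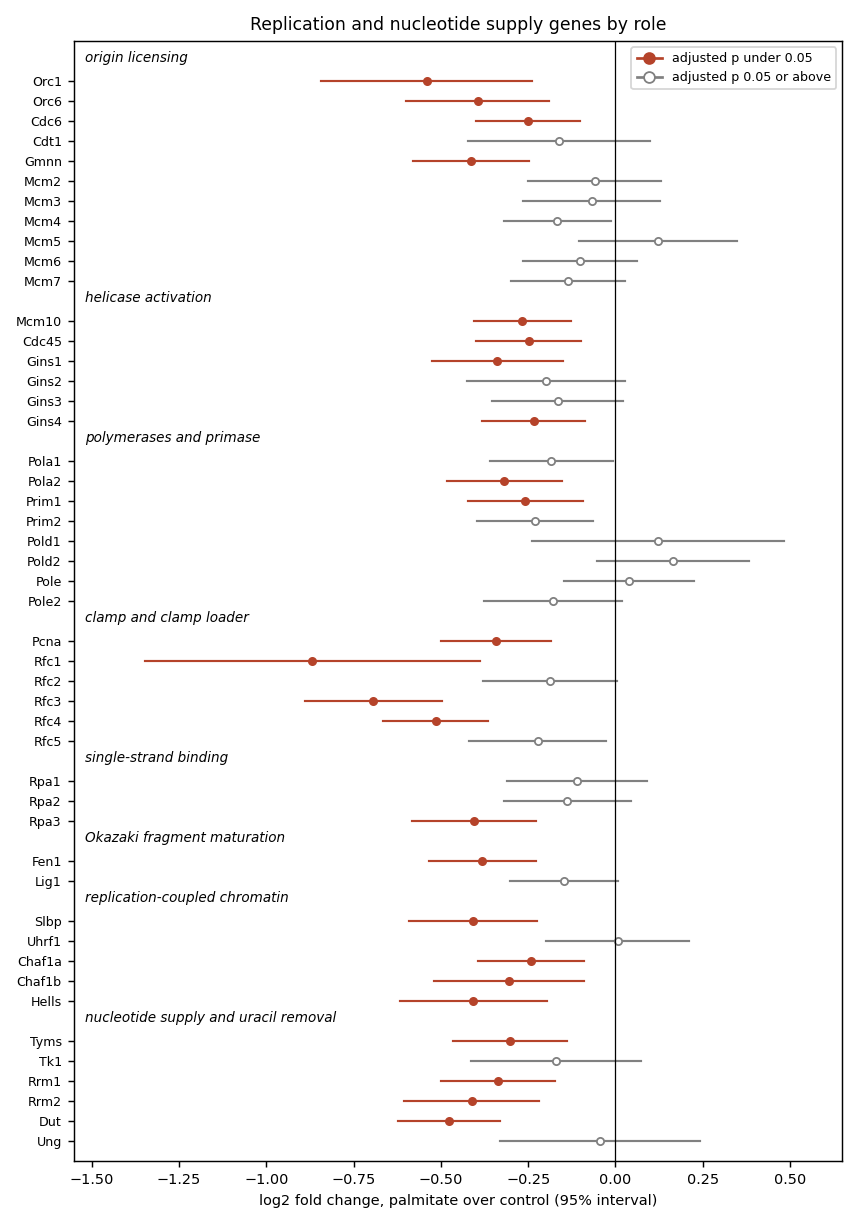
Log2 fold change of each of the 47 genes, palmitate over control, with its 95% interval, grouped by role; filled red points passed at an adjusted p under 0.05 in edgeR's quasi-likelihood test. Red points lie left of 0 in every role, from −0.23 to −0.87, and the Mcm2 to Mcm7 points lie between −0.17 and 0.12.

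The forest plot of all 47 genes shows the pattern by role, where 11.7% of all tested genes fell. Origin licensing had 4 of 11 genes that fell (median −0.16), helicase activation 4 of 6 (−0.24), polymerases and primase 2 of 8 (−0.18), the clamp and its loader 4 of 6 (−0.43), single-strand binding 1 of 3 (−0.14), Okazaki fragment maturation 1 of 2 (−0.26), replication-coupled chromatin 4 of 5 (−0.31) and nucleotide supply with uracil removal 4 of 6 (−0.32). The matrix held 21.3% of Rfc1 and 32.1% of Rfc2 transcript reads. In transcript sums with length offsets, where 10.4% of tested genes fell, the clamp and its loader had 3 of 6 (−0.26). Nucleotide supply with uracil removal had 4 of 6 (−0.36) in those sums. Whether roles differ from each other was not tested.

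Among licensing genes, the falls were in the recognition and loading factors and in the licensing inhibitor, and none of the 6 subunits of the helicase ring passed. Gmnn (ENSMUSG00000006715), which encodes geminin, the protein that holds Cdt1 inactive after S phase begins, had 92.2, 97.0 and 97.8 CPM in palmitate libraries 1 to 3, against 123, 122 and 137 CPM in control libraries 1 to 3. All palmitate libraries lay well below the lowest control library, and the fall was −0.41 ± 0.07 (SE) on the log2 scale (adjusted p = 0.00817). Orc6, the smallest subunit of the origin recognition complex, had 108, 119 and 113 CPM in palmitate libraries and 131, 159 and 157 CPM in control libraries, without overlap. It fell (−0.39 ± 0.09, adjusted p = 0.0191), although its call was kept in only 2 of the 6 leave-one-out fits, those without palmitate 2 and without control 1. Orc1, the subunit that starts the complex's assembly cycle, averaged 55.4 ± 7.0 CPM in palmitate and 80.6 ± 12.2 CPM in control libraries (SD, n = 3 each) and fell (−0.54 ± 0.13, adjusted p = 0.0242; kept in the same 2 fits). Cdc6, the ATPase that joins the origin complex to load the helicase, averaged 154 ± 5.57 CPM in palmitate and 183 ± 6.03 CPM in control libraries and fell (−0.25 ± 0.06, adjusted p = 0.0291), a call kept only without control 1.

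Cdt1, which brings the helicase ring to the origin, had 42.2, 35.5 and 43.0 CPM in palmitate libraries, against 44.8, 40.0 and 50.1 CPM in control libraries. Those ranges overlapped and Cdt1 did not pass (−0.16, 95% interval −0.42 to 0.10). The matrix held 68.5% of the reads assigned to Cdt1 transcripts, and in sums over all of them the difference was 0.21 with length offsets, with the opposite sign (adjusted p = 0.344), and −0.03 without the offsets.

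The subunits of the helicase ring had small differences, none of which passed. Mcm2 had 250.01, 221 and 234 CPM in palmitate libraries and 263, 226 and 246 CPM in control libraries. Its groups interleaved, and the log2 difference of −0.06 had a 95% interval of −0.25 to 0.13. Mcm3 had 454, 434 and 481 CPM in palmitate libraries, against 526, 443 and 466 CPM in control libraries, likewise interleaved (−0.07, −0.27 to 0.13). Mcm6, the most abundant of the ring subunits by length-scaled level, had 776, 770.0 and 812 CPM in palmitate libraries and 875, 798 and 856 CPM in control libraries. Palmitate 3 exceeded control 2, and the difference was −0.10 (−0.26 to 0.06). Mcm4 had 419, 395 and 427 CPM in palmitate libraries and 462, 472 and 459 CPM in control libraries, and Mcm7 431, 396 and 416 CPM in palmitate libraries and 473, 434 and 459 CPM in control libraries. In these 2 genes the groups did not overlap, but neither passed (Mcm4 −0.17, adjusted p = 0.105; Mcm7 −0.14, adjusted p = 0.196, edgeR's quasi-likelihood test). DESeq2 called Mcm4 lower and no other ring subunit. Mcm5 had 130.04, 120.5 and 148 CPM in palmitate libraries, against 128, 109 and 129 CPM in control libraries, with overlap (0.12, −0.10 to 0.35); the matrix held 29.6% of its transcript reads, and the sum over all transcripts gave 0.17. Missing the threshold does not show equality: the intervals of the 6 subunits reach down to −0.32 for Mcm4 and up to 0.35 for Mcm5, and a fall as large as that of Gmnn lies outside all 6.

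**Figure D2:**
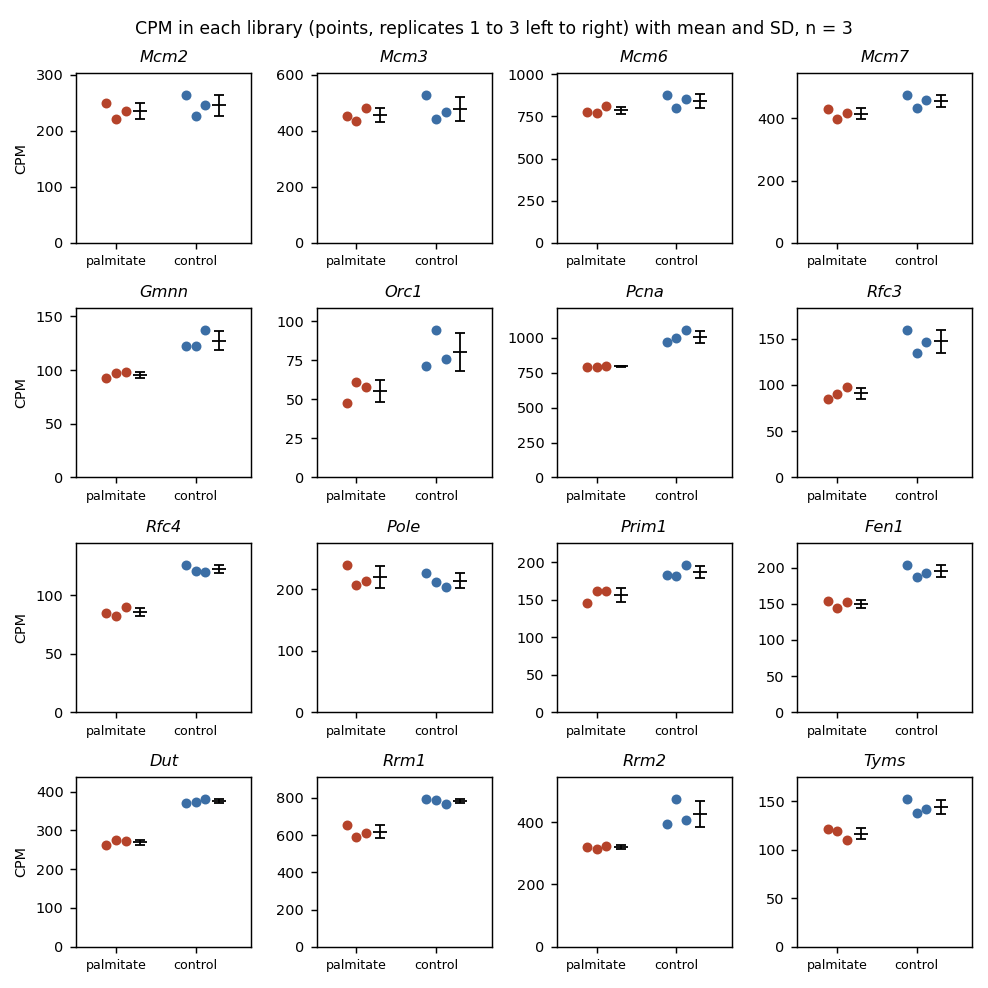
CPM in each library for 16 of the genes (points, replicates 1 to 3 from left to right; bars give mean and SD, n = 3), palmitate in red at the left and control in blue at the right of each panel, axes from 0. Rfc3, Rfc4, Fen1, Gmnn and Dut show a gap between the groups, while Mcm2, Mcm3, Mcm6 and Pole overlap.

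Of the 6 factors that switch the ring on, 4 fell. Mcm10, which binds the loaded ring and is needed to separate the paired helicases, had 154, 154 and 159 CPM in palmitate libraries, against 192, 184 and 187 CPM in control libraries. The spread within each group was far smaller than the gap, and Mcm10 fell (−0.27 ± 0.06, adjusted p = 0.0196); in transcript sums with length offsets the value was −0.24 and the call ended (adjusted p = 0.0599). Gins1, a GINS subunit, had 37.4, 35.8 and 35.7 CPM in palmitate libraries and 46.2, 42.9 and 48.7 CPM in control libraries, without overlap, and fell (−0.34 ± 0.08, adjusted p = 0.0233). Cdc45, the helicase partner loaded with GINS, averaged 123 ± 3.48 CPM in palmitate and 146 ± 6.91 CPM in control libraries and fell (−0.25 ± 0.07, adjusted p = 0.0311). Gins4 averaged 62.2 ± 1.01 CPM in palmitate and 73.2 ± 1.14 CPM in control libraries and fell (−0.23 ± 0.06, adjusted p = 0.0350). The remaining GINS subunits, Gins2 (−0.20, adjusted p = 0.177) and Gins3 (−0.17, adjusted p = 0.175), did not pass, although all palmitate libraries lay below all control libraries for both. Mcm10 and Gins1 kept their calls in 3 of the 6 leave-one-out fits (lost without palmitate 2, palmitate 3 and control 3), Cdc45 in 2 (without control 1 or control 2) and Gins4 in 1 (without control 1).

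Of the polymerase genes, Pola2 and Prim1 of the polymerase α and primase complex fell, and the leading and lagging strand polymerases did not pass. Pola2, the regulatory subunit that links the catalytic subunit to primase, had 62.2, 61.5 and 64.7 CPM in palmitate libraries, against 81.2, 73.6 and 79.9 CPM in control libraries. The groups were apart and the fall was −0.32 ± 0.07 (adjusted p = 0.0188); the matrix held 76.7% of Pola2 transcript reads, and the sum over all of them gave −0.26 with length offsets (adjusted p = 0.0962), which ended the call. Prim1, the catalytic primase subunit that makes RNA primers, had 146, 162 and 162 CPM in palmitate libraries and 183, 182 and 197 CPM in control libraries, without overlap, and fell (−0.26 ± 0.07, adjusted p = 0.0363). Prim2, the larger primase subunit, averaged 88.5 ± 4.14 CPM in palmitate and 104 ± 5.68 CPM in control libraries and missed the threshold narrowly (−0.23 ± 0.07, adjusted p = 0.0526). It passed with RLE scaling (12.2% of tested genes fell), with DESeq2, in the transcript sums and with the replicate number as a block (16.6% fell). Pola2 kept its call without control 1 or control 2, and Prim1 only without control 1, so the count of polymerase genes that fell was 0 without any 1 of the palmitate libraries and 0 without control 3.

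Pola1, the catalytic subunit of polymerase α, averaged 245 ± 19.0 CPM in palmitate and 278 ± 6.99 CPM in control libraries, with no overlap, and did not pass in the matrix (−0.18, adjusted p = 0.118). In transcript sums with length offsets it fell by 0.57 on the log2 scale (adjusted p = 0.00382), while the same sums without offsets gave −0.20. Its short processed transcript Pola1-202 held 2.33%, 3.37% and 3.41% of Pola1 reads in palmitate libraries, against 5.83%, 7.88% and 8.23% in control libraries, and the coding transcript Pola1-201 held 96.1%, 94.5% and 95.1% in palmitate libraries and 91.6%, 90.5% and 89.5% in control libraries. In CPM, Pola1-201 had 252, 212 and 236 in palmitate libraries and 253, 259 and 244 in control libraries, which overlapped. The share of the short transcript was lower in every palmitate library. Length offsets use a gene's mean transcript length in each library, so such a change in shares alters the value they give. How much of the difference between the sums came from it was not tested. Pold1 and Pold2, subunits of the lagging strand polymerase δ, had differences of 0.12 (95% interval −0.24 to 0.48) and 0.16 (−0.05 to 0.38). Pole, the catalytic subunit of the leading strand polymerase ε, averaged 219.6 ± 17.7 CPM in palmitate and 214 ± 11.5 CPM in control libraries (0.04, −0.15 to 0.22), and its partner Pole2 49.7 ± 3.15 CPM in palmitate and 56.2 ± 3.76 CPM in control libraries (−0.18, −0.38 to 0.02). Palmitate libraries lay below control libraries throughout for Pole2 and overlapped them for Pold1, Pold2 and Pole.

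The 2 deepest falls of the set, of Rfc1 and Rfc3, were in the clamp loader. Rfc3 (ENSMUSG00000033970), a small subunit of the loader that opens the clamp and closes it around DNA, had 85.1, 90.1 and 97.4 CPM in palmitate libraries, against 159, 135 and 147 CPM in control libraries. The highest palmitate library lay far under the lowest control library, and Rfc3 fell by 0.69 on the log2 scale (SE 0.09, adjusted p = 0.00346), to 0.618 of the control level. Rfc4 (ENSMUSG00000022881), another small subunit, had 84.6, 82.2 and 89.7 CPM in palmitate libraries and 126, 121 and 119.6 CPM in control libraries, again with a clear gap, and fell (−0.52 ± 0.07, adjusted p = 0.00375). Pcna, the clamp that also recruits ligase, nuclease and chromatin factors, had 791, 794 and 802 CPM in palmitate libraries, against 972, 997 and 1057 CPM in control libraries. Palmitate libraries were nearly equal to each other and all below the controls, and the fall was −0.34 ± 0.07 (adjusted p = 0.0128), lost only without control 3.

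Rfc1, the large subunit of the loader, had 29.1, 34.4 and 48.2 CPM in palmitate libraries and 54.8, 74.9 and 73.5 CPM in control libraries in the matrix. It fell by 0.87 on the log2 scale (adjusted p = 0.0254), the deepest value of the set, but the matrix held 21.3% of Rfc1 transcript reads and equalled the reads of 1 transcript, Rfc1-201. Over all Rfc1 transcripts the difference was −0.11 with length offsets and did not pass (adjusted p = 0.286). The call was also lost with no filter on low counts (7.24% of tested genes fell), and was kept in 2 of the 6 leave-one-out fits, without palmitate 3 or control 1. Rfc2 (−0.19, adjusted p = 0.140) and Rfc5 (−0.22, adjusted p = 0.0942), the other small subunits, did not pass, with all palmitate libraries below all control libraries. Rfc2 had 30.4, 29.4 and 30.1 CPM in palmitate libraries and 36.1, 31.6 and 34.7 CPM in control libraries, from 32.1% of its transcript reads, and the full sum gave −0.02; Rfc5 passed with the replicate number as a block.

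Replication protein A, the trimer that coats single-stranded DNA at the fork, changed in 1 of its 3 subunits. Rpa3, the smallest, had 47.1, 49.2 and 47.7 CPM in palmitate libraries, against 60.1, 68.2 and 62.6 CPM in control libraries, with no overlap, and fell (−0.41 ± 0.08, adjusted p = 0.0112; call lost only without control 3). Rpa2, the middle subunit, had 128, 125 and 137 CPM in palmitate libraries and 153, 129.8 and 146 CPM in control libraries, which overlapped (−0.14, 95% interval −0.32 to 0.05). Rpa1, the large subunit, also overlapped (−0.11, −0.31 to 0.09). Fen1 (ENSMUSG00000024742), the nuclease that trims the flap of an Okazaki fragment, had 153, 144 and 152 CPM in palmitate libraries, against 204, 188 and 193 CPM in control libraries. Its groups were apart by more than their spread and it fell (−0.38 ± 0.07, adjusted p = 0.00837). Lig1, the ligase that seals the nick afterwards, had 143, 136 and 135 CPM in palmitate libraries and 162, 151 and 147 CPM in control libraries and did not pass (−0.15, −0.30 to 0.01), although the groups did not overlap.

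Of the genes that couple chromatin to replication, all but Uhrf1 fell. Slbp, which binds the stem-loop of histone messenger RNAs and is needed for their use in S phase, had 304, 270.2 and 282 CPM in palmitate libraries, against 353, 380.1 and 402 CPM in control libraries. Even the highest palmitate library was below the lowest control library, and the fall was −0.41 ± 0.08 (adjusted p = 0.0119; lost only without control 3). Hells, a chromatin remodeller that helps maintain DNA methylation, had 307, 312 and 296 CPM in palmitate libraries and 375, 459 and 381 CPM in control libraries. Control 2 stood highest, the groups did not overlap, and Hells fell (−0.41 ± 0.09, adjusted p = 0.0188; lost without palmitate 3 or control 3). The chaperone CAF-1, which deposits new histones behind the fork, fell in both subunits measured, Chaf1a (81.4, 81.7 and 78.9 CPM in palmitate and 99.7, 91.8 and 94.8 CPM in control libraries; −0.24 ± 0.07, adjusted p = 0.0332) and Chaf1b (−0.31 ± 0.09, adjusted p = 0.0491). Leaving out any 1 library ended the call of Chaf1a, for which the matrix held 80.5% of transcript reads, and Chaf1b stayed called only without control 2; Chaf1b was also lost with limma-voom, with a minimum mean of 5 CPM (13.6% of tested genes fell) and in transcript sums with length offsets. Uhrf1, which brings the maintenance DNA methyltransferase to new DNA, averaged 348 ± 35.3 CPM in palmitate and 346 ± 16.2 CPM in control libraries (0.01, 95% interval −0.20 to 0.21).

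Nucleotide supply fell in 4 of 6 genes. Dut (ENSMUSG00000027203), the dUTPase that keeps uracil out of DNA and makes the precursor of thymidylate, had 261, 274 and 272 CPM in palmitate libraries, against 369.9, 373 and 379.9 CPM in control libraries. Both groups were tight, the gap was many times their spread, and Dut fell (−0.48 ± 0.06, adjusted p = 0.00407), to 0.719 of the control level. Rrm1, the large subunit of ribonucleotide reductase, which makes deoxynucleotides from ribonucleotides, had 656, 589 and 614 CPM in palmitate libraries and 793, 786 and 769 CPM in control libraries, without overlap. It fell (−0.34 ± 0.07, adjusted p = 0.0151), a call lost without palmitate 3 or control 3. Rrm2, the small subunit of that enzyme and the part whose level follows S phase, had 321, 312 and 324 CPM in palmitate libraries, against 395, 473 and 407 CPM in control libraries. Control 2 was the highest library, all controls exceeded all palmitate libraries, and Rrm2 fell (−0.41 ± 0.08, adjusted p = 0.0137; lost only without control 3).

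Tyms, the synthase that turns dUMP into dTMP, had 121, 119 and 109.8 CPM in palmitate libraries and 152, 138 and 142 CPM in control libraries. The groups did not overlap and Tyms fell (−0.30 ± 0.07, adjusted p = 0.0217), in 3 of the 6 leave-one-out fits, those without palmitate 1, control 1 and control 2. Tk1, the cytosolic thymidine kinase of the salvage route, had 71.0, 58.2 and 67.2 CPM in palmitate libraries, against 82.6, 67.0 and 71.5 CPM in control libraries. Palmitate 1 and 3 exceeded control 2, although each palmitate library lay below the control of its own number, and Tk1 did not pass (−0.17, 95% interval −0.41 to 0.07). Ung, the glycosylase that removes uracil already in DNA, averaged 60.0 ± 7.55 CPM in palmitate and 61.8 ± 8.18 CPM in control libraries, with full overlap (−0.04, −0.33 to 0.24; 0.01 with upper-quartile scaling, the opposite sign).

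**Figure D3:**
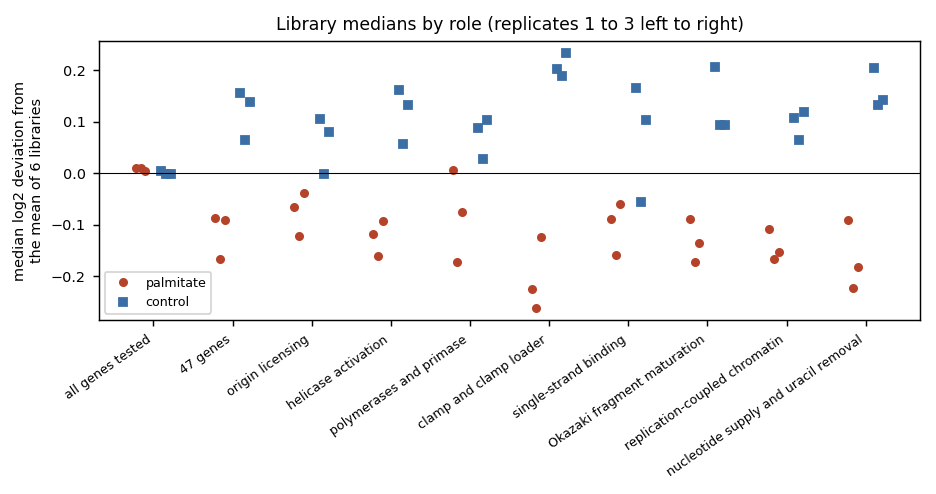
Median log2 deviation of each library from the mean of the 6 libraries, over all tested genes, over the 47 genes and over each role (red circles, palmitate 1 to 3; blue squares, control 1 to 3). Over the 47 genes the palmitate libraries sit at −0.09, −0.17 and −0.09 and the control libraries at 0.16, 0.07 and 0.14, and all tested genes sit near 0 in every library.

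The plot of library medians shows how the 6 libraries rank within each role. Palmitate 2 was the lowest library over the 47 genes, at −0.17, and control 2 the lowest control, at 0.07. For the clamp and loader the palmitate medians were −0.22, −0.26 and −0.12, against 0.20, 0.19 and 0.23 in control libraries. For polymerases and primase they were 0.01, −0.17 and −0.08 in palmitate libraries, against 0.09, 0.03 and 0.10 in control libraries. For single-strand binding control 2 lay at −0.05, under 0.

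Levels can be compared between genes only per length, and for that the deposited TPM, which divide reads by transcript length and scale them to a common total, were summed over each gene's transcripts. Pcna was the highest of the 47 in both groups, at 823 ± 24.1 TPM in palmitate and 1012 ± 12.7 TPM in control libraries (SD, n = 3 each). Dut followed, at 428 ± 9.49 TPM in palmitate and 599.8 ± 4.37 TPM in control libraries. By control mean the next were Slbp (246 ± 20.7 TPM in palmitate, 325 ± 12.7 TPM in control), Mcm6 (301 ± 9.92 TPM in palmitate, 316 ± 15.3 TPM in control) and Rrm2 (212 ± 8.81 TPM in palmitate, 271 ± 24.3 TPM in control). Slbp and Mcm6 did not differ beyond their spread in control libraries, nor did Rrm2 and Rrm1 (205 ± 16.2 TPM in palmitate, 248 ± 13.7 TPM in control). Gins3 was the lowest, at 16.0 ± 1.66 TPM in palmitate and 17.8 ± 1.57 TPM in control libraries, next to Chaf1a at 16.6 ± 0.940 TPM in palmitate and 20.3 ± 1.12 TPM in control libraries. Rfc3 moved most in the order, standing 20th among palmitate means and 12th among control means. Within the helicase ring the TPM means lay between 76.3 ± 7.95 for Mcm2 and 301 ± 9.92 for Mcm6 in palmitate libraries and between 77.7 ± 6.91 for Mcm2 and 316 ± 15.3 for Mcm6 in control libraries. TPM is a share of all transcripts in a library and carries no test here.

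**Figure D4:**
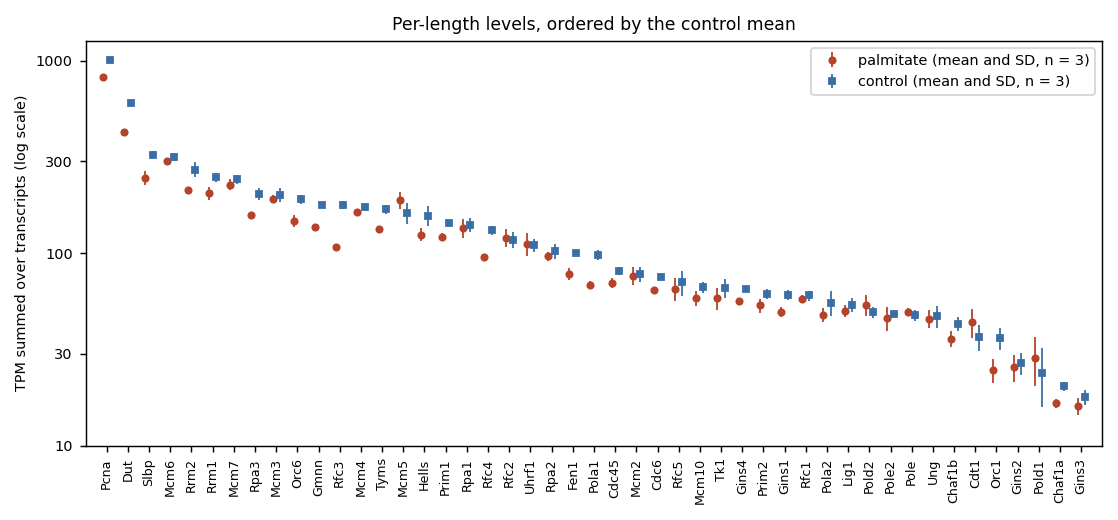
TPM of the 47 genes summed over transcripts, on a log axis, ordered by the control mean (red circles, palmitate; blue squares, control; mean and SD, n = 3). Pcna and Dut stand at the left with the highest means in both groups, and Chaf1a and Gins3 at the right with the lowest.

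The matrix did not count every transcript of every gene. It held under 90% of the reads that the transcript tables assign to a gene for 7 of the 47: Rfc1, Mcm5, Rfc2, Cdt1, Pola2, Chaf1a and Orc6 (85.8%). Rfc1-201, the transcript that the matrix counted for Rfc1, held 12.2%, 14.8% and 20.6% of Rfc1 reads in palmitate libraries, against 21.0%, 28.0% and 28.3% in control libraries. The transcript Rfc1-206, which the matrix left out, held 63.1%, 64.1% and 58.7% in palmitate libraries and 59.7%, 53.0% and 53.9% in control libraries. Palmitate libraries were lower in the first and overlapped control libraries in the second, so the fall in the matrix is a value of 1 transcript. For Mcm5 the counted transcript Mcm5-201 held 27.3%, 29.0% and 31.1% of reads in palmitate libraries and 28.3%, 30.3% and 32.4% in control libraries, overlapping.

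**Figure D5:**
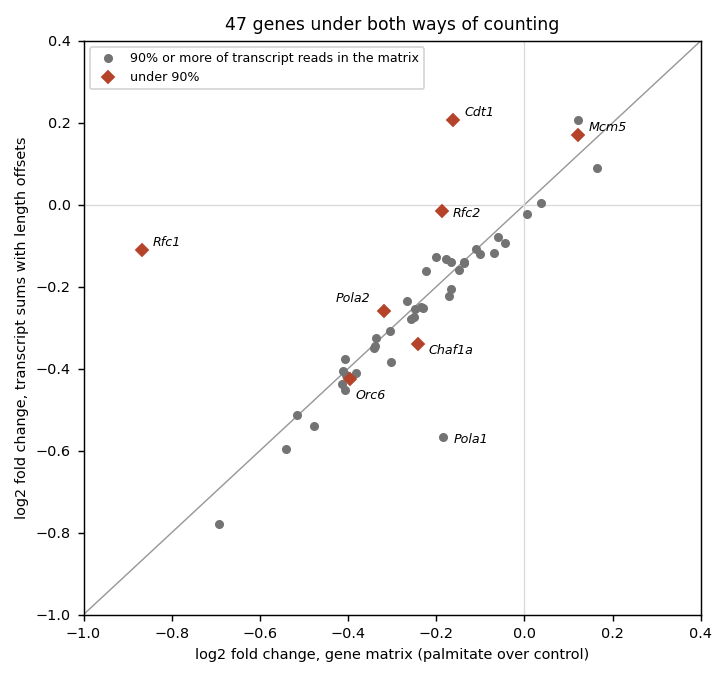
Log2 fold change of each of the 47 genes in the gene matrix (horizontal) and in transcript sums with length offsets (vertical), palmitate over control; the line marks equal values and for red diamonds the matrix held under 90% of transcript reads. Most points lie near the line, and Rfc1 (−0.87 and −0.11), Cdt1 (−0.16 and 0.21) and Pola1 (−0.18 and −0.57) lie away from it.

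The plot of both ways of counting shows that most values were close, but for most of the 47 genes both used nearly the same reads. Among genes counted in part, Rfc1 and Pola2 lost their calls with length offsets, Orc6 and Chaf1a kept theirs, and Cdt1 changed sign. In transcript sums with length offsets 22 of the 47 genes fell, where 10.4% of 13082 tested genes fell, and without the offsets 23, where 13.5% fell. With the offsets, 20 were among the 24, Pola1 and Prim2 were added, and Mcm10, Pola2, Rfc1 and Chaf1b dropped out.

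Transcript shares were also apart between the groups in genes whose totals did not pass. Mean shares differed little in Mcm4, Mcm6 and Pole, more in Rfc2, Cdt1 and Pola1, and most in Uhrf1 and Ung. Uhrf1-203 held 15.5%, 18.3% and 16.9% of Uhrf1 reads in palmitate libraries, against 19.96%, 32.0% and 31.3% in control libraries. Ung-201 held 33.7%, 35.1% and 43.1% of Ung reads in palmitate libraries and 32.3%, 28.0% and 30.6% in control libraries, and Ung-203 60.3%, 58.2% and 52.9% in palmitate libraries and 62.1%, 67.8% and 65.3% in control libraries. None of these ranges overlapped between the groups, and the shares were not tested. Most transcripts of the 47 genes with a mean share of 10% or more did overlap, Uhrf1-201 and Uhrf1-204 among them. How often shares separate over all transcripts was not counted. In mouse and human, alternative starts of Ung give a nuclear and a mitochondrial enzyme. Which transcript encodes which was not examined. Of the 47 genes, 29 had a single transcript with a mean share of 10% or more and 18 had several, and shares of reads between overlapping transcripts are estimates.

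The E2F-type words were also counted by call. A word was in the window of 4 of the 21 genes with a window that fell (19.0%), namely Cdc6, Hells, Orc1 and Rfc3. It was in the window of 11 of the 18 that did not pass (61.1%): Cdt1, Gins3, Lig1, Mcm3, Mcm5, Mcm6, Mcm7, Pola1, Pold1, Pole2 and Uhrf1. In Cdt1, Lig1, Mcm3, Pold1 and Pole2 every word lay after the start site. Each of the 4 genes that fell had a word before it, so the contrast rests in part on words behind the start. The word CCAAT, on either strand, was in 61.5% of the 39 genes and in 43.2% of tested genes with a window, and the share was 61.9% among the genes that fell and 61.1% among those that did not pass. These shares are descriptions of few genes with no test.

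Other genes of the same pathways were counted from lists that hold none of the 47. Over all tested genes 11.7% fell and 11.1% rose, and the shares without each library and under other settings are those given above. Of 40 tested genes of the wider replication list 15 fell and 0 rose (21 lower and 2 higher at an unadjusted p under 0.05; 19 fell with DESeq2), with a median of −0.19. The smallest p-values belonged to Tipin, a fork protection factor (−0.51 ± 0.08, adjusted p = 0.00706), Orc2, an origin complex subunit (−0.52 ± 0.09, adjusted p = 0.00824), Nasp, a histone chaperone (−0.37 ± 0.07, adjusted p = 0.00864), and Dbf4, the activator of the Cdc7 kinase that fires origins (−0.38 ± 0.07, adjusted p = 0.00900); Nasp and Dbf4 lost their calls without control 3. This count was 8, 6 and 5 without palmitate 1, 2 and 3, and 17, 5 and 3 without control 1, 2 and 3; with upper-quartile scaling it was 6. With the replicate block 19 fell and 1, Pold4, rose (0.59 and adjusted p = 0.0635 without the block), where 16.5% of tested genes rose.

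Further nucleotide genes fell too: of 41 tested genes of deoxynucleotide, purine and pyrimidine synthesis, 14 fell and 2 rose. Over all tested genes the shares were 11.7% and 11.1%. Without palmitate 2 or control 2 the falls were 8, without palmitate 3 they were 7, without control 3 they were 4, and with upper-quartile scaling 9. Among deoxynucleotide genes (5 fell and 1 rose of 17), Dctpp1, which breaks down dCTP (−0.52 ± 0.08, adjusted p = 0.00559), and Dctd, which deaminates dCMP to dUMP (−0.62 ± 0.10, adjusted p = 0.00627), fell, and Tk2, the mitochondrial thymidine kinase, rose (0.48 ± 0.12, adjusted p = 0.0255; a call kept only without control 1). Purine synthesis had 6 falls among 15 genes, led by Ppat, the first committed enzyme of the route (−0.47 ± 0.07, adjusted p = 0.00497), and Gmps (−0.44 ± 0.09, adjusted p = 0.0115), with Paics (−0.33) and Impdh2 (−0.36) next. Gmps lost its call without control 3, Impdh2 also without control 2, and Paics also without palmitate 3. Pyrimidine synthesis had 3 falls and 1 rise among 9 genes. The CTP synthase genes moved in opposite directions: Ctps had 206, 235 and 222 CPM in palmitate libraries and 278, 295 and 280.4 CPM in control libraries (−0.36 ± 0.07, adjusted p = 0.0131; lost without control 3), and Ctps2 had 56.9, 52.3 and 54.9 CPM in palmitate libraries and 40.1, 33.4 and 37.4 CPM in control libraries (0.56 ± 0.09, adjusted p = 0.00654). Uck2, a uridine and cytidine kinase (−0.33), and Umps, which makes UMP (−0.26), were the other falls, Uck2 lost without palmitate 2, palmitate 3 or control 3 and Umps called only in the full set and without control 2.

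Regulators of S phase entry fell in 7 of 18 genes and rose in 1, where 11.7% of all tested genes fell and 11.1% rose. Of these regulators, 4 fell without palmitate 2, 2 without palmitate 3 and 2 without control 3. With the replicate block 9 fell and 2 rose, where 16.6% of tested genes fell and 16.5% rose. The cyclin E genes, which drive S phase entry with Cdk2, fell: Ccne1 had 78.1, 76.0 and 73.4 CPM in palmitate libraries and 116, 128 and 118 CPM in control libraries (−0.67 ± 0.07, adjusted p = 0.00254), and Ccne2 fell by 0.68 on the log2 scale (adjusted p = 0.00622). Cdkn1b, the cyclin-dependent kinase inhibitor p27, had 72.8, 51.7 and 50.9 CPM in palmitate libraries, against 33.7, 38.1 and 34.5 CPM in control libraries, and rose (0.72 ± 0.14, adjusted p = 0.0130; lost without control 3). Cdc25a, a phosphatase that activates Cdk2, fell (−0.29 ± 0.06, adjusted p = 0.0158; lost without palmitate 3 or control 3). Genes of G2 and mitosis fell in 7 of 11, with Ccnb1 (−0.54 ± 0.07), Ttk (−0.52 ± 0.08), Cdk1 (−0.39 ± 0.07) and Plk1 (−0.46 ± 0.09) having the smallest p-values; 4 fell without palmitate 3 or control 3, and 10 with the replicate block. The proliferation marker Mki67 had 882, 677 and 665 CPM in palmitate libraries and 804, 886 and 739 CPM in control libraries, overlapping, and did not pass (−0.13, 95% interval −0.41 to 0.16).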

How the data were processed

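RNA of 3 palmitate and 3 control libraries was analysed. Per the submitters' processing notes, reads passed through Trim Galore 0.6.10 and Salmon 1.10.0, with DESeq 1.42.0 and build GRCm39 also named; their order and any strand setting are not given in the sources used here. For the series the authors deposited whole-number estimated (expected) counts per gene and, per library, Salmon tables of expected counts and TPM per transcript. Salmon divides reads between near-identical copies, so genes with processed pseudogenes are uncertain to that extent. GENCODE M21 and a table of gene names gave symbols to 29087 of 29370 identifiers and genes to 114808 of 116224 transcripts (99.44% to 99.49% of reads). The matrix equalled the transcript sums within 1.5 reads for 23479 of 29084 genes. No column of it went unused (0 columns), and 0 entries named no gene. Promoter windows come from RefSeq, build GRCm38.p6.

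Testing used edgeR 4.0.16 in R 4.3.3 on the matrix counts (TMM, filterByExpr with a minimum count of 10, robust quasi-likelihood fit, two-sided test, Benjamini-Hochberg over 12068 genes at 0.05); adjusted p-values are from this test where no other is named. CPM values use TMM-scaled totals. SE is the log2 fold change divided by the root of F. Alternatives were DESeq2 1.42.0, limma-voom 3.58.1, upper-quartile and RLE scaling, a minimum mean of 5 CPM, no low-count filter, a replicate block, transcript sums with length offsets, each library left out, and, chosen after seeing the data, transcript sums without offsets. The intervals are 95% intervals of the fit.

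Replicate numbers 1 to 3 occur in both groups. Deviations of same-number libraries correlated at 0.226, 0.13 and 0.152, and of different numbers at −0.185 to 0.0608. The numbers were therefore taken to pair the libraries, as a pattern in the data that the labels do not explain. The fit reported leaves this pairing out, and among the tests only the replicate block uses it. Replicates differed by more than sampling noise (chi-square per gene 11.5 to 37.6). Values per library are given for Mcm2 to Mcm7, Pcna, Tyms, Tk1, Rrm1, Rrm2, for the 2 smallest p-values of each role and for genes counted in part, and of other lists the 4 smallest p-values are named, except for some genes not reported here. Mki67, Cd79a and the other cell markers, and transcripts and promoters shown, were picked after their values were seen. The 47 genes, the roles and the lists were chosen with earlier results of these data known.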

Additional observations from a re-analysis of the deposited data

How the results depend on the processing

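The count of the 47 genes that fell was 24 in the fit reported and 17 to 26 under the 9 other settings that kept all libraries. The replicate block gave 26, with the 24 kept and Prim2 and Rfc5 added, where 16.6% of all tested genes fell; it changed no other call among the 47. Leaving out 1 library gave 5 to 22 for the 47 genes, 1 to 4 for licensing, 0 to 2 for polymerases and primase, 1 to 4 for nucleotide supply, 3 to 17 for other replication genes and 4 to 14 for nucleotide synthesis genes; the lowest of these counts of the 47 came without control 3, and the cause was not tested. With upper-quartile scaling the counts were 1 for polymerases and primase (2 as reported), 6 for other replication genes (15 as reported) and 9 for nucleotide synthesis genes (14 as reported), and the median of all tested genes was 0.08, against 0.02 with TMM. Over all tested genes 2.8% to 14.8% fell when 1 library was left out, and 8.72% fell with upper-quartile scaling. Fits without a library have 2 against 3 samples, and a lost call there is no sign of a smaller change. Genes listed as not passing may still differ.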

Other observations

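Mcm10 and Slbp also differed in how their reads were divided between transcripts. Mcm10-202, a coding transcript, held 13.7%, 13.5% and 13.7% of Mcm10 reads in palmitate libraries, against 17.9%, 19.7% and 16.7% in control libraries. Slbp-202, also coding, held 5.38%, 9.94% and 7.05% of Slbp reads in palmitate libraries and 11.4%, 11.4% and 11.008% in control libraries. Neither pair of ranges overlapped, and how often this occurs over all transcripts was not counted.

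Among the wider replication genes, Dna2, a nuclease and helicase that processes long flaps of Okazaki fragments, had 33.9, 26.5 and 28.8 CPM in palmitate libraries and 52.7, 43.9 and 43.6 CPM in control libraries and fell (−0.65 ± 0.12, adjusted p = 0.0101, edgeR's quasi-likelihood test, kept without each of the 6 libraries). The genes of these paragraphs were picked after their values were seen.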
